A study of Arabidopsis thaliana with 18 samples.

Results

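SHORT-ROOT (SHR), SCARECROW (SCR) and 8 INDETERMINATE DOMAIN (IDD) zinc finger genes were followed across 6 cell populations sorted from the Arabidopsis shoot apical meristem (SAM). The 10 genes were chosen by name, after JKD and SGR5 had stood out in these same comparisons, and were SHR (AT4G37650), SCR (AT3G54220), JACKDAW (JKD, AT5G03150), MAGPIE (MGP, AT1G03840), NUTCRACKER (NUC, AT5G44160), SHOOT GRAVITROPISM 5 (SGR5, AT2G01940), IDD14 (AT1G68130), IDD16 (AT1G25250), IDD4 (AT2G02080) and IDD5 (AT2G02070). Of these, 9 of 10 were listed in at least 1 table of differentially expressed genes. Over all genes 8444 were so listed, where up to 22074 were tested in a table. Because the fold changes themselves drew attention to the genes, the values below are a description and no test of the members was made.

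All cells came from 1 line: ap1 cal plants, whose meristems proliferate in place of flowers, carrying pAtML1::mTag-BFP-ER (blue, epidermis), pREV::REV-2YPET (yellow, the central REVOLUTA domain) and pmiR165a::GFP-ER (green, the peripheral miR165a domain). Protoplasts from about 50 apices of plants 4 to 5 weeks old were sorted by colour, with 3 libraries for each of 6 populations. These were epidermal miR165a cells (blue and green), epidermal REV cells (blue and yellow), epidermal gap cells (blue only), subepidermal miR165a cells (green only), subepidermal REV cells (yellow only) and all-negative cells, which carried no colour and so have no marker of their own. The mutations and the 3 reporters were shared by every population, and the yellow reporter contains the REV coding sequence. No treatment was applied. The plants were in the T2 generation, and the labels give short days where the study's methods give continuous light.

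In the root, SHR is a GRAS transcription factor made in the central vascular cylinder that moves one cell layer outwards, where it binds SCR, a second GRAS protein, and together they specify the endodermis. IDD proteins are nuclear zinc finger factors that bind DNA and partner these GRAS proteins. JKD holds SHR in the nucleus of the receiving layer and helps to maintain SCR, while SGR5, IDD14 and IDD16 act in the shoot on gravitropism, lateral organ shape and auxin.

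The zinc finger that names the family is shown first so that the members can be compared over it. The sequences are the coding DNA of the first finger of each IDD gene, read 5′ to 3′ from the RefSeq genome TAIR10.1, with the codons of the 2 cysteines and 2 histidines that hold the zinc in capitals.
JKD: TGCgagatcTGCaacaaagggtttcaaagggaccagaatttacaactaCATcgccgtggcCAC
MGP: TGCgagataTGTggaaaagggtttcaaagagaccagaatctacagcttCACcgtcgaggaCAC
NUC: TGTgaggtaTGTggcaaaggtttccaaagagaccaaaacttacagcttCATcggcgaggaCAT
SGR5: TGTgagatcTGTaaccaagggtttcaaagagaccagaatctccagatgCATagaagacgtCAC
IDD14: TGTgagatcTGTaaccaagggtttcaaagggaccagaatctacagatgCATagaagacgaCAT
IDD16: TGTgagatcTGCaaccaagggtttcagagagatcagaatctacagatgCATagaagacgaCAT
IDD4: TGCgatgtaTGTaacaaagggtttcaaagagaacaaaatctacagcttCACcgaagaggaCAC
IDD5: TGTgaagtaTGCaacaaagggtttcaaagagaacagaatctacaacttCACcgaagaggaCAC

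Over these 63 bases, IDD14 was identical to SGR5 and to IDD16 at 59 positions each, and SGR5 and IDD16 shared 57. IDD4 and IDD5 shared 58, and JKD shared at most 50 with any other member (MGP or IDD5). MGP shared 54 with IDD4 and 52 with each of NUC and IDD5. So short a stretch does not settle how the members are related. In the same annotation IDD4 and IDD5 lie on chromosome 2 with 7297 bases and no gene between them. JKD lies at chr5:745421-749028 on the plus strand with 4 exons, SHR at chr4:17691687-17693859 on the plus strand with 1 exon, and SGR5 at chr2:432195-435100 on the plus strand with 3 exons. IDD16 (chr1:8849034-8851790, plus strand) was the only member overlapped by another annotated gene, the long noncoding RNA gene AT1G05943 on the opposite strand. The library kit is not described as marking strand, so reads of IDD16 and of AT1G05943 cannot be told apart where they overlap.

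The IDD14 and IDD16 genes also shared sequence in front of their starts, which is shown because their expression patterns differed, as described below. Among the 250 bases before each member's annotated start, the best ungapped match of any of the 45 pairs was between these genes, with 69 of 77 bases identical. The score (matches minus mismatches) was 61, against 16 for the next best pairs, MGP with NUC and SHR with SGR5. In IDD14 the stretch lies at chr1:25531827-25531903 and runs from 181 to 105 bases before the start, and in IDD16 it lies at chr1:8848858-8848934 and runs from 176 to 100 bases before it. Both are on the plus strand, and the IDD16 stretch lies outside AT1G05943. Capitals mark identical bases.
IDD14: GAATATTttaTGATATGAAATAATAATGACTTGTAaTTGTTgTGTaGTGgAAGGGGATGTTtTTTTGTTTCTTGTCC
IDD16: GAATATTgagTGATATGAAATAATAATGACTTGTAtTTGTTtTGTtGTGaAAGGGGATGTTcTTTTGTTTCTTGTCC

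Both stretches open with GAATAT. These letters or GAATAA, the binding motif of the abaxial KANADI factors, were found on either strand in the 250-base windows of 5 of 10 members (SHR, SCR, IDD14, IDD16 and IDD5), against 41.7% of the windows of 27443 protein-coding genes. The IDD motif TTTGTC was in 3 windows (SCR, SGR5 and IDD4), against 24.1% of all. TAATNATTA, the core bound by HD-ZIPIII factors such as REV, was in no member's window and in 3.70% of all, and the auxin response element TGTCTC was in that of IDD4 and in 10.9% of all. A match is a description of the letters and not a binding site.

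The tables used here hold one comparison each, so no depth, value or spread is given per library. A gene is listed where its adjusted p in the study's test was at most 0.05 and its log2 fold change was 1 or more in either direction, and each fold change carries its standard error (SE). All 15 pairs of populations were covered by 15 tables from 1 fit on the 18 libraries, and 4 further tables came from fits on a pair of populations alone. For genes whose listed fold changes linked all 6 populations (5 of 10 members, and 3832 genes in all), the mean normalized count of each population was worked out from the mean over libraries and the fold changes. These counts are not divided by gene length, so they were compared between populations and not between genes. In sorted bulk libraries, fewer cells with a transcript and less RNA per cell cannot be told apart.

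The sort was checked against markers. The summed level of 5 epidermal genes (ATML1, PDF2, PDF1, FDH and ACR4) was 24854 to 28328 in the 3 blue populations and 535 to 799 in the others, and each of the 5 was listed in all 9 comparisons between layers. REV had mean normalized counts of 2298 and 2844 in the epidermal and subepidermal REV cells and 1022 to 1288 elsewhere. The yellow reporter contains the REV coding sequence, so its reads cannot be told apart from those of the REV gene here. MIR165A was listed in no table, so the green gate could not be checked from its own transcript. None of 8 endodermis genes (CASP1 to CASP5, MYB36, ESB1 and SGN3) was listed in any table, which gives no level for them. The summed level of 5 vascular genes (ATHB8, PXY, APL, TMO5 and SMXL5) was 3179 in subepidermal REV cells, 618 in all-negative cells and 125 to 185 in the other 4 populations. The 618 in all-negative cells was made up of SMXL5 at 431, APL at 113, TMO5 at 40.9, PXY at 26.6 and ATHB8 at 6.43. Levels worked out from fold changes are always above 0, so they cannot show whether a population lacked these transcripts.

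JKD had the widest range. Its mean normalized count was 813 in subepidermal miR165a cells, 499 in all-negative cells, 43.4 in epidermal miR165a cells, 21.3 in subepidermal REV cells, 20.2 in epidermal gap cells and 7.49 in epidermal REV cells. Subepidermal miR165a and all-negative cells were thus high, and every blue population and the subepidermal REV cells were lower, at 7.49 to 43.4. JKD was listed in 13 of 15 comparisons. The exceptions were the neighbours in this order, subepidermal miR165a against all-negative cells (0.71 apart on the log2 scale) and subepidermal REV against epidermal gap cells (0.07 apart).

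Between subepidermal miR165a and epidermal REV cells the log2 fold change of JKD was 6.76 ± 0.37 (SE), a 108-fold difference and the largest of the 3189 genes higher in the miR165a cells in that table. Against subepidermal REV cells it was 5.26 ± 0.32, or 38.2-fold, the largest of 1092 genes higher in the miR165a cells. Within the epidermis JKD followed the same order with smaller steps, 1.10 ± 0.34 from gap to miR165a cells and 1.43 ± 0.40 from REV to gap cells. JKD was absent from the table of the fit on subepidermal miR165a and REV cells alone, and from that on epidermal gap and REV cells alone. It was listed in the other such fits, at 2.83 ± 0.60 for epidermal miR165a over REV cells and 4.72 ± 0.31 for all-negative over subepidermal REV cells. The cause of the absences was not tested.

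**Figure D1:**
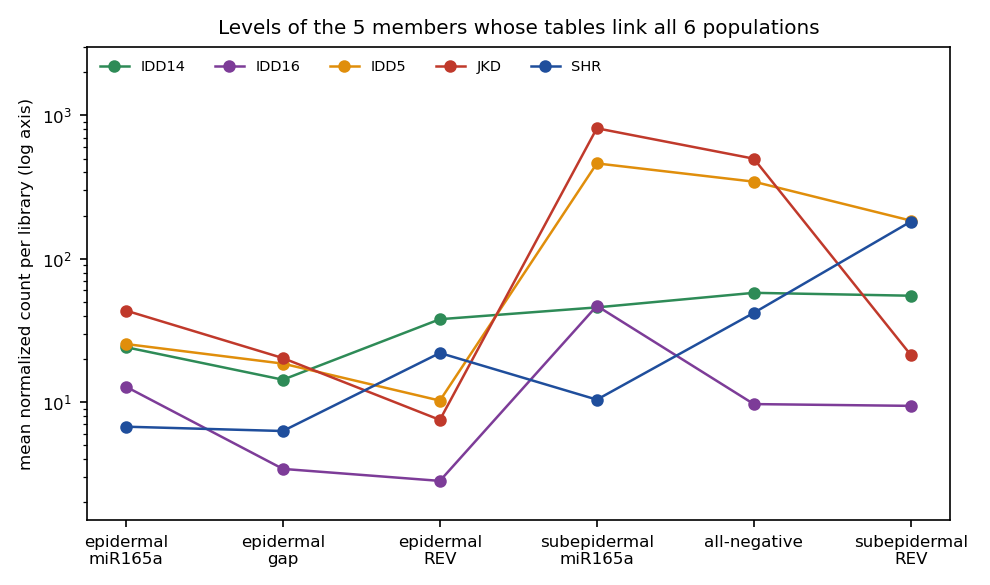
Mean normalized count per library (log axis) of the 5 members linked across all 6 populations, worked out from the deposited means and fold changes and drawn without error bars; lines only join the points of 1 gene. JKD spans 7.49 to 813 and SHR peaks at 181 in subepidermal REV cells, where JKD is at 21.3.

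SHR differed from JKD in subepidermal REV cells, where it was highest. Its mean normalized count was 181 in subepidermal REV cells, 41.9 in all-negative cells, 22.0 in epidermal REV cells, 10.4 in subepidermal miR165a cells, 6.72 in epidermal miR165a cells and 6.27 in epidermal gap cells. Subepidermal REV cells stood above every other population, and within each layer the REV cells were above the miR165a cells. SHR was listed in 11 of 15 comparisons, among them all 5 with subepidermal REV cells, where it was higher by 2.12 ± 0.28 (over all-negative cells) to 4.86 ± 0.37 (over epidermal gap cells) on the log2 scale. The 4 pairs without a listing were subepidermal miR165a with either epidermal miR165a or gap cells, the latter pair with each other, and all-negative with epidermal REV cells (0.93 apart). Like SHR, all 5 vascular genes were higher in subepidermal REV cells than in each of the other populations but all-negative cells. Over all-negative cells 4 of 5 were higher, all but the phloem gene APL. All-negative cells, second highest for SHR, were second highest for TMO5 and SMXL5 too. They were highest for APL (113) and lowest for ATHB8 (6.43), and PXY was lower there (26.6) than in epidermal gap cells (39.7). The part of vascular cells in the SHR values was not tested.

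SCR, the GRAS partner of SHR, was listed in 1 comparison only. It had a mean normalized count of 376 over all libraries and was lower in subepidermal than in epidermal REV cells by a log2 fold change of 1.08 ± 0.19, where SHR was higher by 3.05 ± 0.29. Pairs without a listing may differ by less than the limit or may have missed the adjusted p, and the tables do not show which.

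IDD5, like JKD, had its highest level in subepidermal miR165a cells. For neither gene were these cells listed against all-negative cells, and for IDD5 the populations were 0.42 apart on the log2 scale. IDD5 is also called RAVEN and acts with JKD in patterning root ground tissue. The mean normalized count of IDD5 was 462 in subepidermal miR165a, 345 in all-negative, 184 in subepidermal REV, 25.4 in epidermal miR165a, 18.5 in epidermal gap and 10.2 in epidermal REV cells. All 3 populations without the blue marker were above all 3 with it, and the 9 fold changes between layers ran from 2.86 ± 0.28 to 5.50 ± 0.31 on the log2 scale. Between subepidermal and epidermal REV cells the log2 fold change was 4.17 ± 0.31 for IDD5 and 1.51 ± 0.41 for JKD. Its neighbour IDD4, of which a mean normalized count of 1.80 was recorded over all libraries, was listed once, lower in epidermal REV than in all-negative cells by 1.68 ± 0.72.

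IDD16 was also highest in subepidermal miR165a cells, at a mean normalized count of 46.8, against 12.8 in epidermal miR165a, 9.66 in all-negative, 9.39 in subepidermal REV, 3.41 in epidermal gap and 2.81 in epidermal REV cells. It was the only member listed as higher in subepidermal miR165a than in all-negative cells, by 2.28 ± 0.51, the 11th largest of 110 genes in that direction. Among the blue populations too, IDD16 was highest in the miR165a cells. IDD16 was listed in 10 of 15 comparisons, and the pairs not listed included subepidermal REV with epidermal gap cells, although these were 1.46 apart on the log2 scale.

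IDD14 varied less. Its mean normalized count was 57.8 in all-negative, 55.1 in subepidermal REV, 45.7 in subepidermal miR165a, 37.8 in epidermal REV, 24.1 in epidermal miR165a and 14.3 in epidermal gap cells. No neighbours in this order were listed against each other, and all 6 listings had the epidermal gap or epidermal miR165a cells on the lower side, by 1.19 ± 0.36 to 2.01 ± 0.36. IDD14 was not listed between the miR165a and REV cells of either layer, where IDD16 was.

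SGR5, a zinc finger gene needed for the gravity response of inflorescence stems, was listed in 5 comparisons, none with all-negative cells. Relative to epidermal gap cells it was higher by 1.64 ± 0.18 in epidermal REV cells, by 1.35 ± 0.19 in epidermal miR165a cells and by 1.05 ± 0.19 in subepidermal miR165a cells. Subepidermal REV cells were lower than epidermal REV cells by 1.43 ± 0.18 and lower than epidermal miR165a cells by 1.14 ± 0.19. Epidermal gap and subepidermal REV cells were thus the lowest of the 5 linked populations, 0.22 apart, and the other 3 lay within 0.59 of each other. Subepidermal REV cells were 0.84 below subepidermal miR165a cells, under the limit and not listed. All-negative cells have no level for SGR5. No other member was listed as higher in both epidermal miR165a and epidermal REV cells than in the gap cells between them. IDD14 and SHR were listed as higher in the REV cells. In the miR165a cells they were above gap cells by 0.75 and 0.10, under the limit.

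**Figure D2:**
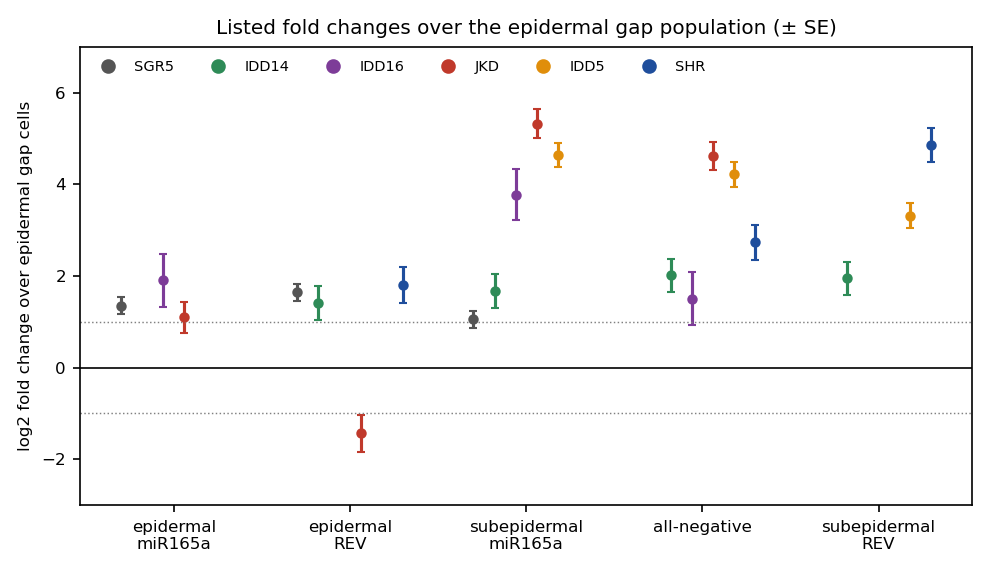
Listed log2 fold changes (± SE) over epidermal gap cells of 6 members in the other 5 populations; dotted lines mark the limits of 1 and -1, and a missing point was not listed. SGR5 lies between 1.05 and 1.64 in 3 populations, whereas JKD reaches 5.33 in subepidermal miR165a cells and is at -1.43 in epidermal REV cells.

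MGP and NUC, targets of SHR and SCR in the root, were nearly or wholly outside the tables. MGP had a mean normalized count of 1.0 over all libraries and was higher in subepidermal REV cells than in epidermal miR165a cells by 1.92 ± 0.67 and than in subepidermal miR165a cells by 1.98 ± 0.68. In the tables of 8 comparisons no gene had a mean normalized count under 2.08, and MGP and IDD4 lie under that. NUC was in no table, and its level is therefore not known.

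The question of the sort was how the miR165a domain differs from the REV domain, and in the epidermis 4 of 10 members were listed between these domains (17.3% of 20703 genes tested were called). JKD was higher in epidermal miR165a than in epidermal REV cells by 2.54 ± 0.40, IDD16 by 2.18 ± 0.60 and IDD5 by 1.31 ± 0.35. SHR was lower in the miR165a cells, by 1.71 ± 0.43. Below the epidermis 5 of 10 members were listed (9.74% of 22074 genes called). There JKD was higher by 5.26 ± 0.32, IDD16 by 2.32 ± 0.51 and IDD5 by 1.33 ± 0.22 in the miR165a cells, and SHR was lower by 4.13 ± 0.35, as was MGP.

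The 4 members listed in both layers kept their direction, as did 927 of the 1022 genes listed in both. For JKD and SHR the fold change was larger in size below the epidermis. The subepidermal minus the epidermal log2 fold change was 2.72 ± 0.51 for JKD and -2.42 ± 0.55 for SHR, which went from -1.71 to -4.13 (SE of the difference of 2 fold changes from different libraries). IDD16 and IDD5 differed between layers by 0.13 ± 0.79 and 0.01 ± 0.41, less than their SE. These differences are descriptions, since the same contrasts drew attention to the genes.

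**Figure D3:**
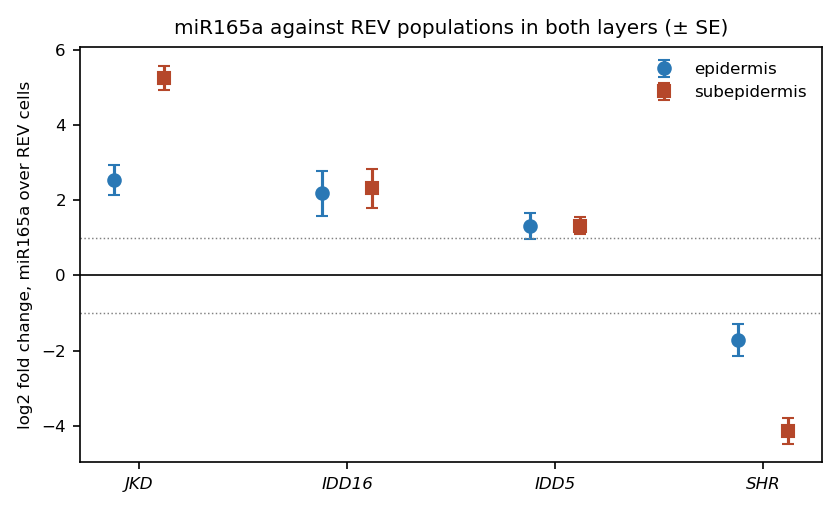
Log2 fold change (± SE) of miR165a over REV cells in the epidermis (circles) and subepidermis (squares) for the 4 members listed in both; dotted lines mark 1 and -1. JKD lies at 2.54 and 5.26, SHR at -1.71 and -4.13, and the 2 points overlap within their SE for IDD16 and IDD5.

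Within the epidermis, 3 of 10 members were listed between miR165a and gap cells (5.79% of genes called), and JKD, SGR5 and IDD16 were all higher in the miR165a cells. Between REV and gap cells 4 of 10 were listed (6.61% called), with SHR, SGR5 and IDD14 higher and JKD lower in the REV cells. Gap cells carry only the blue marker and lie between the domains. JKD was thus lower in REV cells than in gap cells and higher in miR165a cells than in gap cells, whereas SGR5 was higher in both.

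Between layers of the same domain, 3 of 10 members were listed for miR165a cells (10% called), with JKD, IDD16 and IDD5 higher below the epidermis by 4.23 ± 0.30, 1.87 ± 0.51 and 4.19 ± 0.28. For REV cells 6 of 10 were listed (18.1% called), with SHR, JKD, IDD16 and IDD5 higher and SCR and SGR5 lower below the epidermis. Across domains, subepidermal miR165a cells differed from epidermal gap cells in 5 members, all higher (14.8% called), and from epidermal REV cells in 4 (23.9% called), of which SHR alone was lower. Subepidermal REV cells differed from epidermal miR165a cells in 6 (14.4% called), with JKD and SGR5 lower, and from epidermal gap cells in 3 (13.0% called), all higher.

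All-negative cells differed from the blue populations in one direction: every listed member was higher in the all-negative cells. They were SHR, JKD, IDD14 and IDD5 against epidermal miR165a cells (11.4% called), these 4 and IDD16 against epidermal gap cells (14.8% called), and JKD, IDD16, IDD4 and IDD5 against epidermal REV cells (24.0% called). Among all genes called in these comparisons, in the same order, 1354 of 2523, 1945 of 3265 and 3390 of 5306 were also higher in the all-negative cells. Against subepidermal miR165a cells (2.07% called) SHR was higher by 2.01 ± 0.36 in all-negative cells and IDD16 was lower. Against subepidermal REV cells (6.82% called) JKD was higher by 4.55 ± 0.32 and SHR lower by 2.12 ± 0.28. Over all 15 comparisons the members were listed 60 times of 150, or 40.0%, where the share over all genes tested was 12.9%, and nothing is read from that share because these listings drew attention to the genes.

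**Figure D4:**
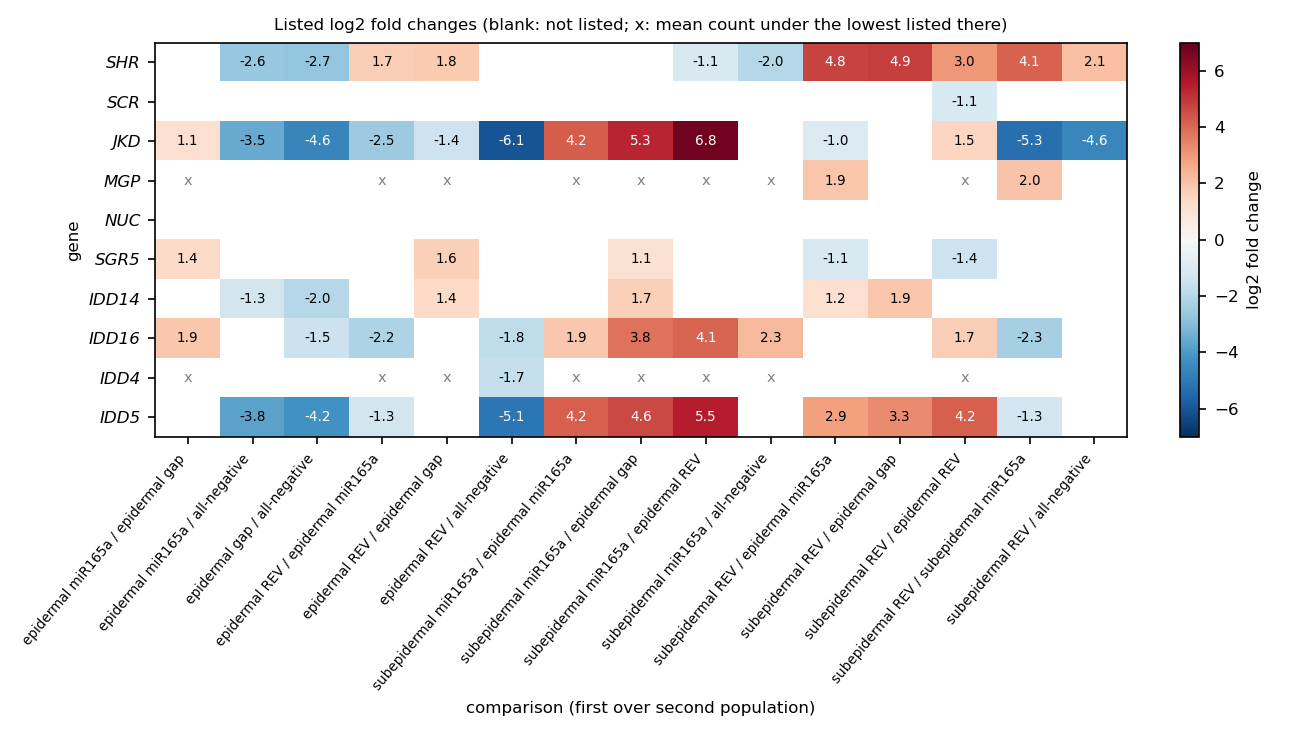
Log2 fold changes of the 10 members (rows) in the 15 comparisons of the fit on 6 populations (columns, first over second population), with red for higher and blue for lower; blank cells were not listed and x marks a mean count under the lowest in that table. JKD fills 13 columns, SHR and IDD5 11 each, IDD16 10, IDD14 6, SGR5 5, MGP 2, SCR and IDD4 1 each and NUC none.

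Close to the limits, the members just inside were JKD between subepidermal REV and epidermal miR165a cells (1.03 ± 0.34) and SGR5 between subepidermal miR165a and epidermal gap cells (1.05 ± 0.19). Just outside, by the difference of listed fold changes, were SHR between epidermal REV and all-negative cells (0.93), IDD14 between the miR165a cells of the 2 layers (0.92) and IDD5 between subepidermal REV and all-negative cells (0.90).

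Among 8 other IDD genes, 5 were listed at least once and 40 of 120 gene and comparison pairs were listed (33.3%, where the share over all genes and comparisons was 12.9%). IDD11 and AT1G14580 were listed in 11 comparisons each, IDD7 in 10, IDD12 in 6 and AT3G45260 in 2, while IDD1, IDD2 and AT5G60470 were in no table. In the epidermis IDD11 was higher in miR165a than in REV cells by 2.08 ± 0.37 and IDD7 by 1.40 ± 0.29, and IDD12 was lower by 2.10 ± 0.64. Below the epidermis AT1G14580 was higher in miR165a cells by 2.20 ± 0.47, and no other of these 8 genes was listed. The levels of IDD11, IDD7 and AT1G14580 were higher in all 3 populations without the blue marker than in the 3 with it, as for IDD5.

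GRAS genes that can partner IDD proteins were listed in 30 of 165 pairs (18.2%, against 12.9% over all genes), with 7 of 11 genes listed at least once. SCL3, a GRAS gene of the gibberellin response and a root target of SHR, was listed in 9 comparisons, with mean normalized counts of 391 in subepidermal REV and 77.5 in epidermal miR165a cells. HAM3, one of the HAIRY MERISTEM genes that maintain the shoot meristem, was listed in 8 and was 2.45 ± 0.34 higher in epidermal miR165a than in epidermal REV cells. LAS, needed for axillary meristems, was listed in 6, RGL3 in 3, GAI in 2 and RGL1 and RGL2 in 1 each. SCL23, RGA, HAM1 and HAM2 were in no table.

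Of 10 root targets and partners of SHR and SCR, 5 were listed at least once, in 36 of 150 pairs (24.0%, against 12.9% over all genes). SCL3, also among the GRAS genes above, and the members MGP and NUC are counted here again. Between subepidermal miR165a and REV cells, where SHR was 17.5-fold lower in the miR165a cells, MGP was lower and TRI higher by 3.32 ± 0.46, and the other 8, the cell cycle gene CYCD6;1 among them, were not listed in the fit on 6 populations. In the fit on these populations alone SNE was also listed, higher in the miR165a cells by 1.26 ± 0.39, and MGP was not. TRI was listed in 10 comparisons, the F-box gene SNE in 9 and the brassinosteroid oxidase gene BR6OX2 in 6. The levels of SNE were 60.5, 49.0 and 26.8 in subepidermal miR165a, all-negative and subepidermal REV cells and 4.05 to 5.70 in the blue populations. RBR1, MIR165A and MIR166B, like NUC, were in no table.

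Of auxin synthesis genes that act downstream of SGR5, IDD14 and IDD16, TAA1 was listed in 13 comparisons and YUC5 in none. Below the epidermis TAA1 was lower in the miR165a cells than in the REV cells by 4.46 ± 0.46, where IDD16 was higher and SGR5 and IDD14 were not listed. TAA1 was also lower in epidermal miR165a than in epidermal REV cells, by 4.76 ± 0.40, though not listed in the fit on those populations alone. Sucrose synthase and starch genes were listed in 7 of 60 pairs (11.7%, near the 12.9% over all genes), SUS4 in 5 and SUS1 in 2, with QQS and SS4 in no table. Other shoot gravitropism genes were listed in 7 of 90 pairs (7.78%, under that 12.9%), SGR9 in 6 and LAZY1 in 1, while SGR2, VAM3, ZIG and PGM were in no table. SGR9 had mean normalized counts of 27.0 in all-negative cells and 2.50 to 9.74 in the other populations.

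The genes most like JKD in pattern, by the root mean square difference of the log2 level over the 6 populations among 2239 linked genes whose mean normalized count reached 50, were AT1G10640 (0.51), AT4G31690 (0.59) and the inositol phosphate synthase gene MIPS3 (0.60). Like JKD, all 3 were highest in subepidermal miR165a cells (1021, 361 and 638 mean normalized counts) and lower in every blue population, at 5.91 to 63.3. For SGR5, over the 5 populations it linked, they were the gibberellin oxidase gene GA2OX4 (0.48), SOFL1 (0.50) and AT1G26208 (0.54). These were nearest in distance, but their gap cells were above their subepidermal REV cells, whereas for SGR5 gap cells were 0.22 below on the log2 scale. The levels of these 3 genes in gap against subepidermal REV cells were 164 against 76.0 (GA2OX4), 101 against 47.3 (SOFL1) and 89.9 against 38.3 (AT1G26208). AT1G26208 and SOFL1 overlap on opposite strands, so their reads may not be independent.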

How the data were processed

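RNA of 18 libraries (6 sorted populations, 3 libraries each) was measured by RNA-seq. Nothing in the sources says whether the libraries of a population came from separate plants beyond the term biological replicate, and the series' design text counts 4 where 3 are listed. Per the labels and the study's methods, the authors used FastQC, cutadapt, TopHat, TAIR10 and HTSeq, and tested with DESeq2, versions not given in the sources used here. The deposited tables give the authors' mean normalized count (a signal over libraries), log2 fold change with its SE, p-value and adjusted p-value, for listed genes only. The authors' fold changes were used as the data, because no values per library were analysed here.

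Fold changes of 15 tables shared 1 mean count per gene and added up exactly around 6738 triangles of populations, so they were taken as 1 fit. Levels were worked out with Python 3.11.15, numpy 2.4.6 and pandas 2.3.3 and tested on simulated data. The number of genes tested was read from adjusted p over p. The members and lists were chosen with earlier results of these data known. Named genes were all members, up to 4 most often listed genes of each list and any gene behind a count of 5 or fewer, the 3 genes most like JKD and SGR5, and sort markers. Alternatives were stricter limits, a mean count of at least 50, the 4 fits on a pair of populations and another anchor of the levels. No median over a list is given, since tables hold only genes past the limits. One gene of the auxin list is not reported here.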

Additional observations from a re-analysis of the deposited data

How the results depend on the processing

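No paired analysis was possible because the tables hold no values per library, and no alternative that leaves out a library was run. Fold changes of genes with a mean count up to 10, as MGP and IDD4 have, were smaller in the fit on 6 populations than in the fits on a pair of populations (median ratio of 0.73 to 0.79 in 4 comparisons, and 0.97 over 50). For IDD16, epidermal miR165a over REV was 2.18 against 2.79 in the fit on that pair. Low levels were higher in the fit on 6 populations: in epidermal REV cells IDD16 was at 2.81 against 1.74, and JKD at 7.49 against 5.49.

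With a log2 fold change of at least 2, the members' listings fell from 60 to 32. In the 8 comparisons that changed most they numbered 0 for epidermal miR165a over gap and for epidermal REV over gap, 2 for epidermal REV over epidermal miR165a, epidermal REV over all-negative, subepidermal REV over epidermal miR165a and subepidermal REV over epidermal REV, and 3 for subepidermal miR165a over gap and subepidermal REV over subepidermal miR165a. The list totals became 8 for GRAS genes, 16 for root targets and partners, 3 for sugar and starch, 4 for gravitropism and 0 for REV.

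With an adjusted p of 0.001 or less, 1 member was left for epidermal miR165a over gap, 2 for epidermal REV over miR165a, gap and all-negative each, and 3 for subepidermal REV over epidermal miR165a. With a mean count of at least 50, 30 listings were left. These were 2 for epidermal miR165a over gap, for epidermal miR165a and gap over all-negative, for subepidermal miR165a over epidermal miR165a, for epidermal REV over each of 3 populations, for subepidermal miR165a over epidermal REV and for subepidermal REV over subepidermal miR165a, 4 for subepidermal REV over epidermal REV, 3 for subepidermal miR165a over gap and subepidermal REV over epidermal miR165a, 1 for subepidermal REV over gap and over all-negative, and 0 for subepidermal miR165a over all-negative, and SHR, IDD14, IDD16, MGP and IDD4 lie under 50. In the fit on subepidermal miR165a and REV cells alone 3 members were listed, without JKD and MGP, and the cause was not tested. The 12 member fold changes listed in both kinds of fit kept their direction, and the differences between layers of SHR, IDD16 and IDD5 moved by less than their SE. That of JKD has no value in these fits. Levels anchored on the geometric mean were 1.11 (IDD14) to 3.77 (JKD) times higher, with the same ratios between populations.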
